A study of Mus musculus with 4 samples.

Results

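The genes examined here encode the enzymes that build triglyceride (TG) in the liver: Gpam, Agpat2, Agpat3, Lpin1, Lpin2, Dgat1, Dgat2 and Mogat1. They were chosen by symbol, and all 8 were found among the 24346 gene symbols of the tables. RNA was sequenced from the liver of male ob/ob mice, an obese strain without leptin, so that every group, controls included, had this defect. Mice started the diets at 6 weeks of age and ate them for 4 weeks. The CD group received regular chow with 1% cholesterol and the WD group a western type diet, rich in cocoa butter and sucrose, also with 1% cholesterol. The CD+7KC and WD+7KC groups received the same diets with 0.01% 7-ketocholesterol (7KC), an oxidized form of cholesterol. Each group had 1 library, and whether it came from a single mouse or from pooled mice is not given in the sources used here. The differences below are therefore between single libraries, without replicates, and are given without p-values.

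TG is made by adding fatty acids to glycerol-3-phosphate in steps. Glycerol-3-phosphate acyltransferase adds the first acyl chain, acylglycerolphosphate acyltransferase adds the next and makes phosphatidate, a lipin removes the phosphate and leaves diacylglycerol, and diacylglycerol acyltransferase adds the last chain. A side route starts from monoacylglycerol, which monoacylglycerol acyltransferase turns into diacylglycerol. In the liver these enzymes fill lipid droplets and supply TG for very low density lipoprotein, and their mRNAs respond to insulin, sterol and fatty acid signals.

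Levels are FPKM, read counts divided by transcript length and by the size of the library, so that different genes can be set side by side. Changes are log2 ratios of FPKM + 0.1. The libraries held an estimated 9430000 to 12100000 fragments, which gave the members between 109 and 6558 reads each. The 95% intervals printed below cover counting error only, not the variation between mice. For Gpam, Lpin1 and Lpin2, which have several mRNAs, the reads were estimated from the shortest, which widens their intervals. The summed FPKM was lowest in WD+7KC, at 602059 against 696062 to 715605 in the other libraries. Rescaling all libraries to the same sum (TPM) moved every gene by 0.22 on the log2 scale in WD+7KC relative to WD and by 0.21 relative to CD+7KC, but by 0.04 or less in the comparisons of CD+7KC or WD with CD. For this reason changes are also given relative to the median of 4671 well-expressed genes (averaging 10 FPKM or more over the libraries), a difference that scaling does not move. Hepatocyte markers, 8 genes, summed to between 43528 and 55823 FPKM. The sum of 8 macrophage and Kupffer cell markers was 151 FPKM on chow and 254 FPKM on the western type diet without 7KC, and 239 and 508 FPKM with it. For 5 sinusoidal endothelial markers the sums were 49.4 and 39.5 FPKM without 7KC and 73.6 and 109 FPKM with it. The sums for markers of other cells ranged from 14.3 to 23.9 FPKM for stellate cells, 2.42 to 3.78 for cholangiocytes, 0.622 to 2.77 for T cells (3 of 4 markers found) and 0 to 0.248 for skeletal muscle. For enterocytes they ranged from 208 to 289 FPKM, nearly all of it from Fabp2, which the liver also expresses.

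The order of the members was nearly the same in each library. Dgat2 was highest, followed by Agpat2, Lpin2, Agpat3 and Gpam in all 4 libraries, while the 3 lowest, Lpin1, Mogat1 and Dgat1, exchanged places. Dgat2 was above 97.4% or more of the genes with a value in a library, and Mogat1 at its lowest, in WD, was above 71.7%. The counting intervals of the levels of Dgat1 and Mogat1 overlapped in WD (13.8 to 17.7 FPKM and 9.71 to 14.3 FPKM) and in WD+7KC (11.8 to 15.0 FPKM and 14.3 to 19.1 FPKM), while in CD+7KC Mogat1 stood above Lpin1 (23.3 to 29.6 FPKM against 19.2 to 21.9 FPKM). The members together summed to 774 and 779 FPKM on chow, without and with 7KC, and to 693 and 660 FPKM on the western type diet. In the same order, Dgat1 and Dgat2 together took 36.5%, 35.5%, 40.6% and 41.8% of these sums, and Mogat1 took 2.73%, 3.38%, 1.71% and 2.51%.

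**Figure D1:**
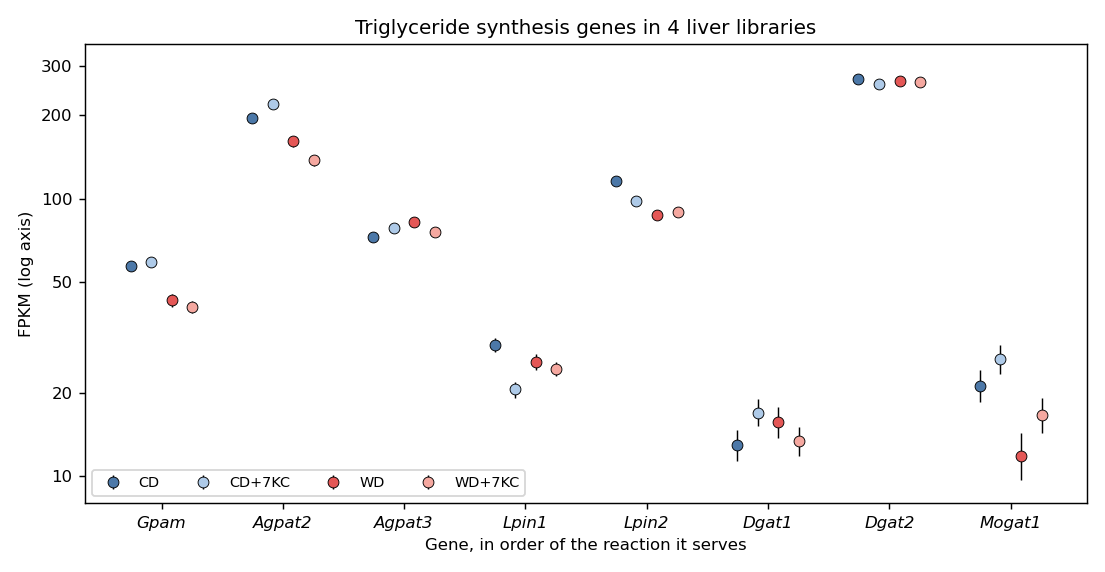
Level of each member in FPKM (vertical log axis) in the 4 libraries, 1 point per library, with bars for the 95% counting interval of the level. Dgat2 sits at 260.0 to 269.8 FPKM in every library, Agpat2 and Gpam are lower in WD and WD+7KC than in CD and CD+7KC, and Mogat1 spans 11.8 to 26.3 FPKM.

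The members differ in the DNA before their start sites. RefSeq start sites on GRCm38.p6 were matched for 6 of the 8 genes, with 9 start sites in all. The sequences before Mogat1, Agpat2, Gpam and Lpin1 are shown because these genes had the widest ranges over the libraries. They are chr1:78510810-78510990 (plus strand) for Mogat1, cut where the GENCODE gene begins, and chr2:26604418-26604667, chr19:55127239-55127488 and chr12:16610967-16611216 (minus strand) for Agpat2, Gpam and Lpin1. Each reads 5′ to 3′ along its gene, and capitals mark CpG dinucleotides.
Mogat1: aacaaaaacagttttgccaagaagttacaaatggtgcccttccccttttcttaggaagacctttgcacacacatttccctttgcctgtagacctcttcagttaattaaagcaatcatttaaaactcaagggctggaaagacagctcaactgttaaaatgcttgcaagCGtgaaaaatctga
Agpat2: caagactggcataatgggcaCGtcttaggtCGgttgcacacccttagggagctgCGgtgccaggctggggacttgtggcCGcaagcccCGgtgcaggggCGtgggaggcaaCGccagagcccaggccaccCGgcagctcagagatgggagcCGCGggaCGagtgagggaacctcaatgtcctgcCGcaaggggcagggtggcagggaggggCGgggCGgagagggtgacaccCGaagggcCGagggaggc
Gpam: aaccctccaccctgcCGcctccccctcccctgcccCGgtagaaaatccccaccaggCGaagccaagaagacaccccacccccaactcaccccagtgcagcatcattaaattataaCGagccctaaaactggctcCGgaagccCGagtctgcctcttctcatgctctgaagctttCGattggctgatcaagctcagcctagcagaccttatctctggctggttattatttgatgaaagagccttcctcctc
Lpin1: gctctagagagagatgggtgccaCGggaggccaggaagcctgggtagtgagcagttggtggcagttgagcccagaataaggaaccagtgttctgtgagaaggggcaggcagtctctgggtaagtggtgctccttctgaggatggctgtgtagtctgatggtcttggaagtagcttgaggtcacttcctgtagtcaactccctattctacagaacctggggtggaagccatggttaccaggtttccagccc
The Mogat1 and Lpin1 windows hold 1 CpG each, the Gpam window 7 and the Agpat2 window 16. GC content was 39.2% for Mogat1, 54.8% for Lpin1 and Gpam, and 69.2% for Agpat2, and 89.6% of all promoter windows of 250 bases had a lower GC content than that of Agpat2. Gpam has another start site, not shown, with 21 CpG and a GC content of 66% in its window, so the order of the genes depends on the start chosen. The uncut 250 bases of Mogat1 hold 2 CpG, with a GC content of 41.2%. The letters CACGTG (an E-box), CCAAT and TATAAA, the sterol regulatory element of the LDL receptor gene, and the direct repeats of AGGTCA spaced by 1 or by 4 bases were searched on both strands in the 250 bases before each start. In the windows of these 4 genes there was 1 match, a CCAAT on the reverse strand from position -74 to -70 before the Gpam start (read as attgg in the line above). Of 32851 windows, 33.8% hold CCAAT, 6.02% CACGTG, 12.4% TATAAA, 0.0731% the sterol regulatory element, 0.0335% the repeat spaced by 1 base and 0.0152% that spaced by 4. Of the other start sites, 1 of Lpin2 had CACGTG from -9 to -4 and another of Lpin2 had 3 matches to CCAAT. None of the matches overlapped.

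Gpam (chromosome 19, 55067268 to 55127238, GRCm38) encodes the mitochondrial glycerol-3-phosphate acyltransferase that opens the pathway and is known as a gene induced by insulin. It was at 57.4 FPKM on CD and 59.2 FPKM on CD+7KC, against 43.0 FPKM on WD and 40.7 FPKM on WD+7KC. The libraries of the western type diet were lower than those of chow, with and without 7KC. The log2 change was -0.42 (95% counting interval -0.51 to -0.32) in WD relative to CD and -0.54 (-0.63 to -0.45) in WD+7KC relative to CD+7KC, or -0.38 and -0.33 after rescaling to equal sums. With 7KC the intervals included 0 as deposited, at 0.04 (-0.04 to 0.13) on CD and -0.08 (-0.18 to 0.02) on WD. Under TPM they lay above 0, at 0.08 (0.00045 to 0.17) and 0.14 (0.04 to 0.24). Relative to the median of the well-expressed genes the changes were 0.06 and 0.04.

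Agpat2 and Agpat3 encode acyltransferases of the step that makes phosphatidate. Agpat2 (chromosome 2, 26593057 to 26604417), whose loss causes lipodystrophy, was at 195 FPKM on CD and 220 FPKM on CD+7KC, against 161 FPKM on WD and 137 FPKM on WD+7KC. It was highest in the chow libraries, and the gap between the diets was wider with 7KC. The log2 change was -0.28 (-0.36 to -0.19) in WD relative to CD and -0.68 (-0.76 to -0.60) in WD+7KC relative to CD+7KC, or -0.47 under TPM. Addition of 7KC went with a higher level on CD, 0.17 (0.10 to 0.25), and a lower level on WD, -0.23 (-0.32 to -0.14), but the latter was -0.01 (-0.10 to 0.08) under TPM. Agpat2 is abundant in fat cells. Of 7 adipocyte markers, Plin1 and Lep were listed at 0 in all 4 libraries, and the list summed to 305 FPKM on CD and 131 FPKM on CD+7KC, against 106 FPKM on WD and 143 FPKM on WD+7KC. With 7KC, 1 of 5 markers with a value was higher on CD (median -0.33). On WD 1 of 3 was higher (median -0.06), so that the rise of the sum there came from 1 marker. Egfl7, which lies on the opposite strand and shares up to 64 exonic bases with Agpat2, was at 10.1 to 17.7 FPKM, and whether the counting used strand is not given in the sources used here.

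Agpat3 (chromosome 10, 78269178 to 78352489) varied less. It was at 72.7 FPKM on CD and 78.3 FPKM on CD+7KC, against 82.3 FPKM on WD and 75.9 FPKM on WD+7KC, a ratio of 1.13 between the highest and the lowest. Of the well-expressed genes, 88.8% had a wider range over the libraries, or 62.2% under TPM. The order of its libraries was not that of Agpat2: Agpat3 was higher in WD than in CD by 0.18 (0.10 to 0.26). The ratio of Agpat2 to Agpat3 within a library, which does not depend on how the library was scaled, was 2.68 (2.54 to 2.83) on CD and 2.81 (2.67 to 2.96) on CD+7KC, against 1.96 (1.84 to 2.08) on WD and 1.81 (1.71 to 1.91) on WD+7KC. The intervals of the chow libraries did not overlap those of the western type diet, and within each diet the intervals with and without 7KC overlapped.

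Lpin1 and Lpin2 encode phosphatidate phosphatases that make diacylglycerol. Lpin1 (chromosome 12, 16535669 to 16610966), which also acts as a transcriptional coactivator and is known to respond to fasting, was at 29.7 FPKM on CD and 20.5 FPKM on CD+7KC, against 25.8 FPKM on WD and 24.4 FPKM on WD+7KC. The CD+7KC library was the lowest and CD the highest. Its log2 change in CD+7KC relative to CD, -0.53 (-0.66 to -0.41), was the most negative of the members in that comparison, and 2.08% of the well-expressed genes were lower still. On WD the change with 7KC was -0.08 (-0.21 to 0.04), or 0.13 under TPM, and lay 0.03 above the median of the well-expressed genes. Beside it, 5 of 11 genes of the fasting and glucocorticoid response were higher and 6 lower in CD+7KC than in CD. This was near the well-expressed genes, of which 46.2% were higher. Among the 6 lower genes Igfbp1, an insulin-repressed gene, went from 90.9 FPKM to 41.6 FPKM with 7KC (-1.13), while the median of the list was -0.12. The part of feeding state in the Lpin1 value was not tested.

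Lpin2 (chromosome 17, 71182560 to 71249817), the more abundant lipin here, was at 115 FPKM on CD and 98.1 FPKM on CD+7KC, against 87.7 FPKM on WD and 89.4 FPKM on WD+7KC. CD was higher than the other libraries. The log2 change was -0.40 (-0.46 to -0.33) in WD relative to CD and -0.23 (-0.29 to -0.17) in CD+7KC relative to CD. In WD+7KC relative to WD it was 0.03 (-0.04 to 0.09), or 0.24 (0.18 to 0.31) under TPM. Both lipins were thus lower in CD+7KC than in CD, but not to the same extent. The ratio of Lpin2 to Lpin1 within a library was 3.89 (3.65 to 4.13) on CD and 4.78 (4.44 to 5.15) on CD+7KC, against 3.40 (3.16 to 3.66) on WD and 3.67 (3.43 to 3.92) on WD+7KC. The interval of CD+7KC stood above those of the other 3 libraries.

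Dgat1 and Dgat2 encode unrelated enzymes that catalyse the last acylation. Dgat2 (chromosome 7, 99153658 to 99182719), which is known to use newly made fatty acids, was at 269.8 FPKM on CD and 260.0 FPKM on CD+7KC, against 266 FPKM on WD and 263 FPKM on WD+7KC. These levels were nearly the same in every library, with a ratio of 1.04 between the highest and the lowest, and 99.6% of the well-expressed genes had a wider range. Under the 5 other scalings the ratio was 1.04 to 1.17 and the share of genes with a wider range 80.2% to 99.6%. In the 4 comparisons the log2 change of Dgat2 lay between -0.05 and 0.02 as deposited. Under TPM it was 0.20 (0.15 to 0.25) in WD+7KC relative to WD and 0.23 (0.17 to 0.28) relative to CD+7KC, close to the shift that TPM gave every gene.

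Dgat1 (chromosome 15, 76502015 to 76511953), known for esterifying fatty acids taken up from outside, was at 12.9 FPKM on CD and 16.9 FPKM on CD+7KC, against 15.7 FPKM on WD and 13.3 FPKM on WD+7KC. The highest library was CD+7KC and the lowest CD. The log2 change with 7KC was 0.38 (0.14 to 0.64) on CD and -0.23 (-0.48 to 0.03) on WD. Each Dgat1 value rests on 240 to 314 estimated reads, and the interval on WD included 0, so that a difference there was not detectable at this depth. The ratio of Dgat2 to Dgat1 was 20.8 (18.3 to 23.8) on CD and 15.4 (13.7 to 17.3) on CD+7KC, against 17.0 (15.0 to 19.4) on WD and 19.7 (17.5 to 22.3) on WD+7KC. With 7KC it was lower on CD, with intervals that did not overlap, and higher on WD, with intervals that did.

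Mogat1 (chromosome 1, 78510991 to 78538173) encodes the monoacylglycerol acyltransferase of the side route, belongs to the same enzyme family as Dgat2, and is known as a PPARγ target in fatty liver. It was at 21.2 FPKM on CD and 26.3 FPKM on CD+7KC, against 11.8 FPKM on WD and 16.6 FPKM on WD+7KC. It was lower on the western type diet than on chow, and higher with 7KC than without it on either diet. Mogat1 had the widest range of the members, 2.23-fold between CD+7KC and WD, and 6.42% of the well-expressed genes had a wider range. The log2 change was -0.83 (-1.19 to -0.51) in WD relative to CD and -0.66 (-0.94 to -0.40) in WD+7KC relative to CD+7KC. With 7KC it was 0.31 (0.06 to 0.57) on CD and 0.48 (0.14 to 0.84) on WD. These directions held under each of the 5 other scalings, which gave 0.20 to 0.35 on CD and up to 0.70 on WD. Relative to the median of the well-expressed genes, the changes with 7KC were 0.33 and 0.60, and 93.9% and 96.9% of those genes had a lower value. The difference of the change with 7KC between the diets, 0.17, had a counting interval of -0.26 to 0.60.

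The ratio of Dgat2 to Mogat1, free of scaling, was 12.8 (11.2 to 14.6) on CD and 9.88 (8.76 to 11.2) on CD+7KC, against 22.5 (18.6 to 27.5) on WD and 15.9 (13.8 to 18.4) on WD+7KC. It was lower with 7KC on each diet and higher on WD than on CD with and without 7KC. The Mogat1 value of WD rested on an estimated 109 reads, the fewest of any member. Pparg, the gene of the receptor named above, had 32.1 FPKM on CD and 26.5 FPKM on CD+7KC, against 22.5 FPKM on WD and 17.9 FPKM on WD+7KC, lower with 7KC on each diet. A gene on the opposite strand, BC035947, shares up to 200 exonic bases with Mogat1, and reads from the pair cannot be told apart unless strand was used. Over the 4 libraries, the genes whose centred log2 profile lay closest to that of Mogat1 among 10685 genes were Prpf4b (distance 0.089), Srrm2 (0.092) and Acly (0.094). Acly, the ATP citrate lyase gene, had 59.4 FPKM on CD and 70.7 FPKM on CD+7KC, against 34.8 FPKM on WD and 47.6 FPKM on WD+7KC. For Agpat2, the next widest in range, they were Qtrt1 (0.031), Lrrc56 (0.032) and Gsto1 (0.040). Within a distance of 0.25 there were 49 genes for Mogat1 and 712 for Agpat2, and 4 libraries are few points for a profile.

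**Figure D2:**
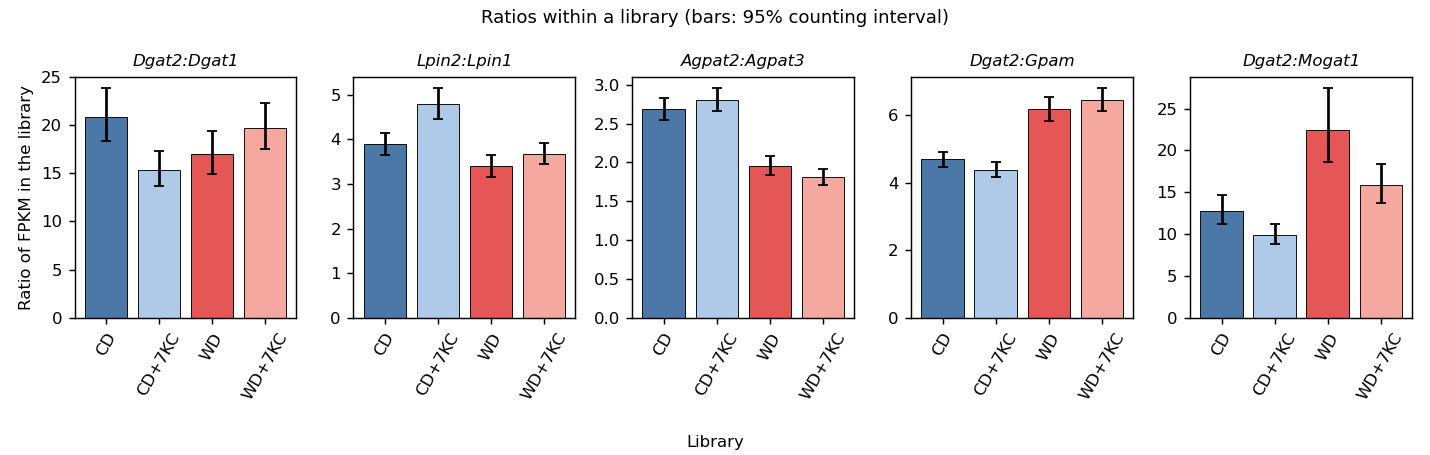
Ratio of the FPKM values of gene pairs within each library (vertical axes start at 0), with bars for the 95% counting interval. Agpat2:Agpat3 is 2.68 and 2.81 on chow against 1.96 and 1.81 on the western type diet, and Dgat2:Mogat1 is lower with 7KC on each diet.

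In WD+7KC relative to WD, the comparison that asks how 7KC acts on a fatty diet, the members ranged from -0.23 for Dgat1 to 0.48 for Mogat1. Lpin2 and Mogat1 were higher and the other 6 members lower, where 28.0% of the well-expressed genes were higher. The median log2 change of the members was -0.08 and that of the well-expressed genes -0.12. No member differed by 2-fold or more, beside 9.00% of all 15753 genes with a value and 1.43% of the well-expressed genes. By 1.5-fold or more, 0 of 8 differed, beside 21.0% and 4.90%. Under TPM 6 were above 0 and 2 below, the median being 0.14 beside 0.10 for the well-expressed genes. Agpat2, Lpin2, Dgat1 and Mogat1 kept their sign under every scaling, and Gpam, Agpat3, Lpin1 and Dgat2 did not. The counting interval lay above 0 for Mogat1 and below 0 for Agpat2 and Agpat3, and it included 0 for the other 5. Under TPM it lay above 0 for 6 members, Agpat3 among them, and included 0 for Agpat2 and Dgat1. The share of the well-expressed genes with an interval that excludes 0 was not computed, so these counts have no background to be read against. In the same comparison, 8 of 8 macrophage and 5 of 5 endothelial markers were higher in WD+7KC and 1 of 8 hepatocyte markers was, with a hepatocyte median of -0.33. In bulk tissue fewer cells of a type and less RNA per cell cannot be told apart, and the part of cell shares in the values of the members was not tested.

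Addition of 7KC to CD gave a wider spread. Gpam, Agpat2, Agpat3, Dgat1 and Mogat1 were higher and Lpin1, Lpin2 and Dgat2 lower in CD+7KC, with a median of 0.08 beside -0.01 for the well-expressed genes, of which 46.2% were higher. No member differed by 2-fold or more, where 6.75% of 15684 genes and 1.18% of the well-expressed genes did, or by 1.5-fold or more, where 17.5% and 3.47% did. The members ranged from -0.53 for Lpin1 to 0.38 for Dgat1. Gpam and Agpat3 turned sign when the libraries were scaled to housekeeping genes, and the other 6 kept theirs under every scaling. Macrophage markers were higher in 8 of 8 cases here too, and hepatocyte markers in 0 of 8, with a median of -0.19. Lpin1, Dgat1 and Mogat1 stood farthest out: 4.35%, 8.65% and 12.4% of the well-expressed genes had a larger change in either direction.

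On the western type diet most members were lower as deposited. In WD relative to CD, Gpam, Agpat2, Lpin1, Lpin2, Dgat2 and Mogat1 were lower and Agpat3 and Dgat1 higher, with a median of -0.24 beside 0.02 for the well-expressed genes, of which 52.1% were higher. By 2-fold or more, 0 of 8 members differed, beside 9.69% of 15597 genes and 2.93% of the well-expressed genes. By 1.5-fold or more the count was 1, Mogat1, beside 24.2% and 10.1%. In WD+7KC relative to CD+7KC, Lpin1 and Dgat2 were higher and the other 6 lower, the median being -0.24 beside -0.08 for the well-expressed genes, of which 40.6% were higher. Under TPM that median was -0.03 beside 0.13, where 4 were above and 4 below 0. Again 0 of 8 were past 2-fold, beside 12.6% of 15898 genes and 5.50% of the well-expressed genes, and 2, Agpat2 and Mogat1, were past 1.5-fold, beside 28.9% and 15.3%. Each library enters 2 of the 4 comparisons, so that these diet comparisons and those of 7KC are not independent. Gpam, Agpat2 and Mogat1 were lower on the western type diet in both comparisons under every scaling. Macrophage markers were higher on it in 8 of 8 cases in both comparisons, with medians of 0.78 without and 1.22 with 7KC. Endothelial markers were higher in 1 of 5 and 5 of 5 cases (medians -0.22 and 0.67), and hepatocyte markers in 3 and 2 of 8 (medians -0.11 and -0.17). The part of these cell types in the values was not tested.

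**Figure D3:**
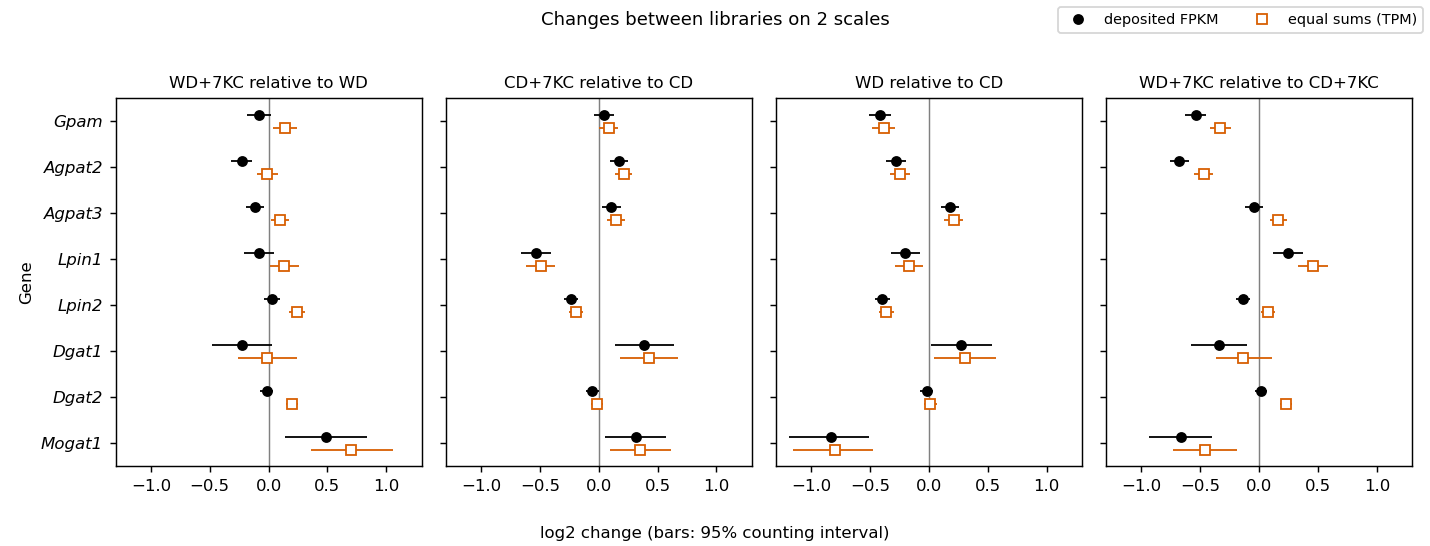
Log2 change of each member in the 4 comparisons (horizontal axis), from the deposited FPKM (filled circles) and after rescaling to equal sums (open squares), with bars for the 95% counting interval. The scales part by about 0.2 where WD+7KC is compared and by under 0.05 elsewhere, and Mogat1 lies right of 0 in both 7KC comparisons and left of 0 in both diet comparisons.

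**Figure D4:**
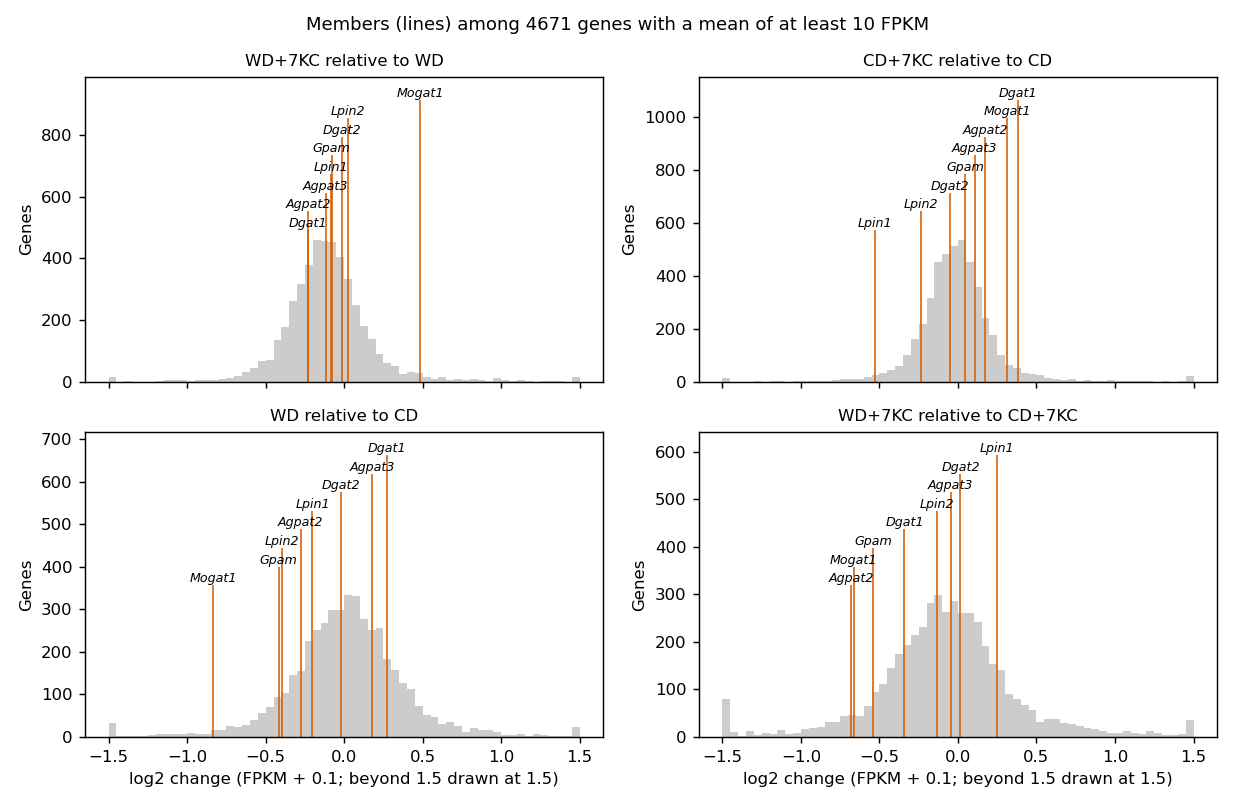
Histograms of the log2 change of the 4671 well-expressed genes (bars, vertical axis in genes, changes beyond 1.5 drawn at 1.5) with a line at each member. Mogat1 at 0.48 lies at the right edge in WD+7KC relative to WD, Lpin1 at -0.53 at the left edge in CD+7KC relative to CD, and Dgat2 stays near 0 in all 4 panels.

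For other genes of glycerolipid synthesis the counts with 7KC depended on the scaling. Of 20 genes, all found, some under older symbols, 11 were higher and 9 lower in WD+7KC relative to WD (median 0.01), but 15 were above 0 and 5 below under TPM (median 0.23). The median of all genes with a value was 0.002 as deposited and 0.21 under TPM. That of the well-expressed genes was -0.12 and 0.10. By 2-fold or more 1 of 20 differed, where 9.00% of all genes did. It was Plpp1, a lipid phosphate phosphatase of the plasma membrane, at 11.7 FPKM with 7KC and 5.56 FPKM without it (1.07). In CD+7KC relative to CD, 8 were higher and 12 lower (median -0.03), or 11 and 9 under TPM, and none was past 2-fold, and the widest difference among those averaging 1 FPKM or more was that of Tmem68, from 4.80 to 3.54 FPKM (-0.43). In WD relative to CD 8 were higher and 12 lower (median -0.11), and in WD+7KC relative to CD+7KC 11 were higher and 9 lower (median 0.16), or 15 and 5 under TPM. Of 18 genes of phospholipid synthesis, 7 were higher and 11 lower in WD+7KC relative to WD (median -0.09), but 13 were above 0 and 5 below under TPM (median 0.13). In CD+7KC relative to CD, 11 were higher and 7 lower (median 0.05), or 13 and 5 under TPM. As deposited, 28.0% of the well-expressed genes were higher with 7KC on WD and 46.2% on CD. In the diet comparisons the shares were 52.1% without 7KC and 40.6% with it.

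The list of regulators held transcription factors and cofactors known to act on these genes, and Insig1 and Insig2, membrane proteins that hold back SREBP. Of these 16 genes, 3 were higher and 13 lower in WD+7KC relative to WD (median -0.12), near the well-expressed genes, of which 28.0% were higher. Under TPM 9 were above 0 and 7 below. In CD+7KC relative to CD, 6 were higher and 10 lower (median -0.09), where 46.2% of the well-expressed genes were higher. None was past 2-fold with 7KC. Cebpb, a factor of the acute response and of fat cell differentiation, was lower with 7KC on CD, 75.5 FPKM against 109.8 FPKM (-0.54). It was also lower with 7KC on WD, 56.1 FPKM against 79.2 FPKM (-0.50). Of 11 genes of the fasting and glucocorticoid response, 3 were higher and 8 lower in WD+7KC relative to WD (median -0.18), close to the share among the well-expressed genes, and 7 were above 0 and 4 below under TPM. G6pc, the glucose-6-phosphatase gene, had 67.5 FPKM with 7KC on WD and 144 FPKM without it (-1.10, or -0.88 under TPM). Pdk4, a kinase that restrains pyruvate oxidation, had 10.5 FPKM with 7KC on WD and 7.08 FPKM without it (0.56). On CD, G6pc had 183 FPKM with 7KC and 182 FPKM without it (0.01). Pdk4 went the other way there, with 9.38 FPKM with 7KC and 12.6 FPKM without it (-0.42).

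**Figure D5:**
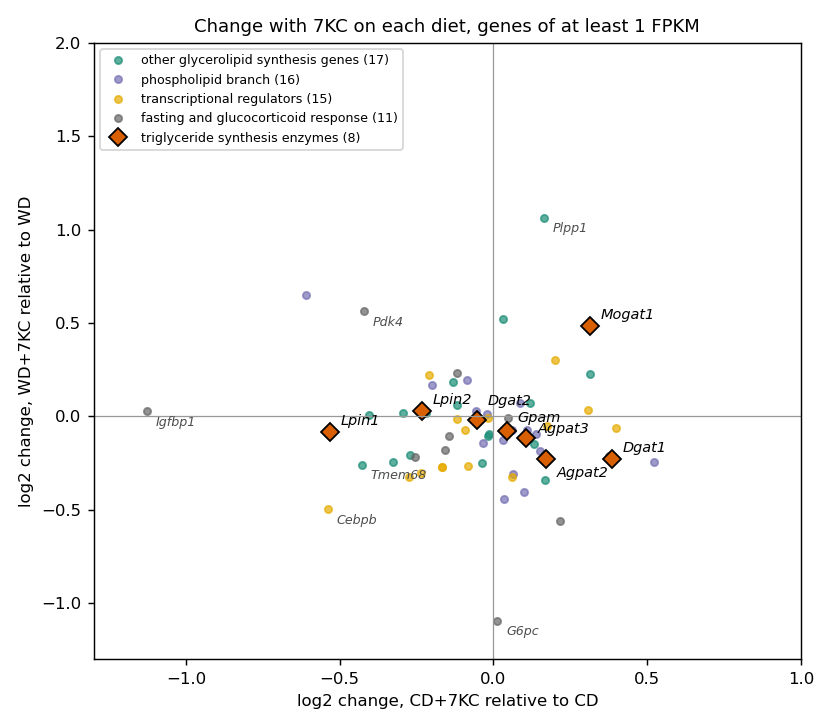
Log2 change in CD+7KC relative to CD (horizontal) and WD+7KC relative to WD (vertical) for the 8 members (diamonds) and the genes of the 4 other lists that average 1 FPKM or more (circles, numbers in the key). Mogat1 is the member in the upper right field, Lpin1 and Dgat2 lie in the lower left, and Agpat2, Agpat3, Gpam and Dgat1 lie right of and below 0.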

How the data were processed

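Per the labels and the study's methods, stranded mRNA libraries from liver were sequenced as single-end reads, and the authors mapped them to mm10 with TopHat2 2.0.13, Bowtie2 2.2.3 and SAMtools 0.1.19. The authors computed FPKM values with Cufflinks 2.2.1 and deposited these FPKM values, 1 for each symbol in a library. The annotation and the Cufflinks options are not given in the sources used here.

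Groups were taken from the sample titles, with 1 library each. Log2 changes were taken after adding 0.1, for genes not at 0 in both libraries compared. For 14589 genes with 1 RefSeq mRNA, the spacing of low FPKM values (at transcript length minus 200 bases) gave the number of fragments. Whole reads, to within 0.1, were found for 69.1% to 70.1% of the low values, where an even spread would give 20%. Exact (Clopper-Pearson for ratios, Poisson for levels) 95% intervals rest on these reads and cover counting error only. Those of a difference between changes use a normal approximation. The alternatives were other pseudocounts, a filter of 1 FPKM, 5 other scalings and a threshold of 1.5-fold. The code was tested on simulated counts of 14589 genes for WD+7KC relative to WD, where 100% of 200 changed genes had the right direction. The median error was 0.08 on the log2 scale. Whether the measured directions of the members are right was not tested in this way. The members, the gene lists and the rule for named genes were chosen with earlier results of these data known. By that rule the text names the members, from the other lists (phospholipid genes aside) the 3 largest changes with 7KC on each diet among genes averaging 1 FPKM or more, and the 3 closest profiles for the 2 members of widest range. Pparg and the genes in the last paragraph of the closing section lie outside the rule and were picked with their values known. Coordinates came from GENCODE vM21 (GRCm38) and start sites from RefSeq (GRCm38.p6). Protein sequences were not used here. Python 3.11.15, numpy 2.4.6, pandas 2.3.3, scipy 1.17.1 and matplotlib 3.10.9 were used.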

Additional observations from a re-analysis of the deposited data

Results flagged for a closer look

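As deposited, the change with 7KC pointed in opposite directions on the diets, beyond the counting interval on each, for Agpat2 and Agpat3. With 1 library per group the difference was not tested. The share of all genes with opposite changes was not computed, so these counts cannot be read as particular to the members. As deposited, 28.0% of the well-expressed genes were higher with 7KC on WD and 46.2% on CD. For Agpat2 the change was 0.17 on CD and -0.23 on WD, a difference of -0.40 (WD minus CD; counting interval -0.52 to -0.28). For Agpat3 it was 0.11 on CD and -0.12 on WD, a difference of -0.22 (-0.33 to -0.11). The signs stayed opposite for Agpat2 under every scaling, at 0.21 and -0.01 under TPM, while Agpat3 was at 0.15 and 0.10 under TPM, higher with 7KC on both diets. Scaled to housekeeping genes, Agpat3 was at -0.007 on CD and -0.07 on WD, lower on both. Relative to the median of the well-expressed genes, Agpat2 was at 0.19 on CD and -0.11 on WD. Agpat3 was at 0.12 and -0.00012 on that measure, so that on WD it moved as the median gene did. Gpam, Lpin2 and Dgat1 also had opposite signs as deposited, but with at least 1 interval that included 0.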

How the results depend on the processing

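Pseudocounts of 1 or 0.01, no pseudocount, a filter of 1 FPKM and median-ratio scaling changed the sign of none of the 32 changes (8 members in 4 comparisons) and moved none beyond its counting interval. The scaling mattered where WD+7KC was compared. The median of the members in WD+7KC relative to WD was -0.08 as deposited, 0.14 under TPM, 0.03 (0.026) with the upper quartile and 0.09 (0.093) under equal sums without the 20 highest genes. In WD+7KC relative to CD+7KC it was -0.24 as deposited, -0.029 under TPM and -0.044 without the 20 highest genes, and in CD+7KC relative to CD it was 0.08 as deposited and -0.039 with 5 housekeeping genes. TPM moved 12 of the 32 changes beyond their counting interval, equal sums without the 20 highest genes 12, housekeeping genes 11 and the upper quartile 5. With a threshold of 1.5-fold the members past it were 1 in WD relative to CD and 2 in WD+7KC relative to CD+7KC, where none was past 2-fold. No paired analysis was possible because each group had 1 library, and for the same reason no library could be left out. Depth limits Dgat1 and Mogat1 most.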

Other observations

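Values of 4 genes from the other lists, picked because they were lower on the western type diet, are given as examples and stand for no trend of their lists. In WD relative to CD, 9 genes of the phospholipid list were higher and 9 lower, 7 regulators higher and 9 lower, and 8 other glycerolipid genes higher and 12 lower. In WD+7KC relative to CD+7KC the counts were 8 and 9, 5 and 11, and 11 and 9. Mlxipl, which encodes the carbohydrate-responsive factor ChREBP, had 51.0 FPKM on CD and 63.2 FPKM on CD+7KC, against 22.4 FPKM on WD and 22.9 FPKM on WD+7KC, with a log2 change of -1.18 in WD relative to CD and -1.46 in WD+7KC relative to CD+7KC. Chpt1, whose enzyme turns diacylglycerol into phosphatidylcholine, was at 402, 412, 244 and 180 FPKM in the same order (-0.72 and -1.20). Insig2, whose membrane protein holds back SREBP, was at 245, 218, 152 and 126 FPKM (-0.69 and -0.79), and Gpd1, which makes glycerol-3-phosphate, at 317, 309, 259 and 218 FPKM (-0.29 and -0.50). By this choice of genes, the libraries with WD stood below those with CD for each of them. Under TPM the changes in WD+7KC relative to CD+7KC would be nearer 0 by 0.21.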
